A study of Mus musculus with 10 samples.

Results

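Accessible chromatin was followed around 8 genes of the Tead and Yap pathway, namely Tead1, Tead2, Tead3, Tead4, Yap1, Wwtr1, Vgll3 and Amotl2, while mouse fibroblasts were reprogrammed towards pluripotency. The assay was ATAC-seq, which marks accessible DNA by the insertions of a transposase, and the data were the authors' peak lists, 1 for each of 10 libraries. All peaks were merged across the libraries into 208851 regions, and the 183 regions that reached into a window from 30 kb before to 30 kb after any of the 8 genes were kept. Tead1 had 49 of these regions, Yap1 30, Tead4 25, Wwtr1 24, Amotl2 17, Tead3 16, Vgll3 12 and Tead2 10. The starting fibroblasts (MEF) came from mice of a C57BL/6 and 129 mixed background that carry a polycistronic OKSM cassette in Col1a1 and the activator M2rtTA in ROSA26, and they were grown without doxycycline. Their progeny were collected at DAY3, DAY6 and DAY9 of doxycycline and ascorbic acid in ES medium. DAY3 was unsorted, whereas DAY6 and DAY9 were sorted for SSEA1, a surface marker of cells on the way to pluripotency. The reference was the V6.5 embryonic stem cell line (ESC) of the same mixed background, without the cassette, unsorted, and grown on irradiated feeder cells with LIF. Each of the 5 stages had 2 libraries, and all 10 carry 1 batch name. Sorting cannot be told apart from day 6 and day 9, nor absence of the cassette from ESC. ESC is 1 line, and the other stages come from 1 mouse model.

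Tead proteins bind DNA through a TEA domain and depend on partners to act on transcription. Yap1 and Wwtr1 (also called Taz) are the coactivators. The Hippo kinases Lats1 and Lats2 phosphorylate both and keep them out of the nucleus, and Amotl2, an angiomotin family protein, binds Yap1 and holds it at junctions and in the cytoplasm. Vgll3, a vestigial-like protein, docks on Tead proteins in place of the coactivators. Fibroblasts spread on a stiff surface are known for nuclear Yap1, and in the early embryo Tead4 with nuclear Yap1 turns on trophectoderm genes such as Cdx2.

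The start of each of the 8 genes (for Tead1 and Tead4, 1 gene end) lay in a region open in every library of the study, so the sequences there are shown first. Promoters from RefSeq (GRCm38.p6, the assembly behind mm10), 250 bases before to 50 bases after a start, were matched for 6 of the 8 genes, and each of them lay whole inside a peak region. The core of the Tead site, GGAATG on either strand, occurred in the promoters of 5 of the 6 genes: Tead3, Yap1, Wwtr1, Vgll3 and Amotl2, but not Tead2. Of all 32851 RefSeq promoters of that length, 14.7% held it, and of the 27025 genes with a promoter in the table, 16.6% had it in at least 1. Tead3 has 3 annotated starts and Wwtr1 2, which gives them more chances of a match. The stretches before the gene record are printed below from 5′ to 3′ on the strand of the gene, with the Tead hexamer in capitals. They cover chr17:28350806-28351055 on the minus strand for Tead3, chr9:8004639-8004846 on the minus strand for Yap1, chr3:57575911-57576160 on the minus strand for Wwtr1 and chr16:65814939-65815188 on the plus strand for Vgll3 (mm10). For Amotl2 only the match and its flanks, chr9:102717727-102717756 on the plus strand, are shown.
Tead3: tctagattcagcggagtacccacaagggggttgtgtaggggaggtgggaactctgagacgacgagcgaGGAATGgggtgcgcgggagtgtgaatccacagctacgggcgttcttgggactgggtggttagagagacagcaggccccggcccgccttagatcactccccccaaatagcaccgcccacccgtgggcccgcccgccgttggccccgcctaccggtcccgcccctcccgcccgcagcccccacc
Yap1: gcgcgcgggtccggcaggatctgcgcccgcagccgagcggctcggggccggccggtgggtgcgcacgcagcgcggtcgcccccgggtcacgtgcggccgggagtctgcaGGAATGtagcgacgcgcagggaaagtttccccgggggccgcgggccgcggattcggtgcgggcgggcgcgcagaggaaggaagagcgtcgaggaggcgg
Wwtr1: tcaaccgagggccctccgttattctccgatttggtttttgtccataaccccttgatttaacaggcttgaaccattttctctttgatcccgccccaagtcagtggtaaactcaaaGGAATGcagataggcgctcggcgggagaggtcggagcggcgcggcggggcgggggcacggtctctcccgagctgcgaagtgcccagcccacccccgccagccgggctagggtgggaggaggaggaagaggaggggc
Vgll3: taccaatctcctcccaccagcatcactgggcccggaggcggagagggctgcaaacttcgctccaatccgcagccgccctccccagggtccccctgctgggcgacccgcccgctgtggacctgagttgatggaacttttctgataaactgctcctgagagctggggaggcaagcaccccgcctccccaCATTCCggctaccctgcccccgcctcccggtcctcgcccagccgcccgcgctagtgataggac
Amotl2: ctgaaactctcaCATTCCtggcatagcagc

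In Yap1 and Wwtr1, the 2 coactivator genes, the hexamer read in the sense direction, at positions −141 and −136 from the start. In Vgll3 and Amotl2 it read in the antisense direction (CATTCC), at −63 and −65. The Tead3 match shown lay at −182 from its outermost start, and 3 further matches lay around the next one. AP-1 (TGANTCA) was in 0 of the 6 genes, against 8.97% of all genes with a promoter in the table. The Klf-type GGGTGTG was in Tead3 alone (9.05% of all genes), GGGCGTG in Vgll3 and Wwtr1 (9.61%), and the Oct4-type ATGCAAA in Vgll3 alone (5.24%), each searched on both strands. A match describes letters in this window and is not evidence of binding.

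Across libraries the lists held 45497 to 88980 peaks. The number of reads is not given, and a relative depth recovered from the lists, the background pileup, ran from 2.327 in DAY6 replicate 2 to 8.322 in MEF replicate 2. The pair of MEF libraries differed most, at 3.415 and 8.322. The DAY3 libraries differed from each other by little more than counting noise, with a ratio of observed to counting variance of 1.33, and so did the DAY9 libraries, at 1.42. The other stages had ratios of 3.61 (DAY6), 5.56 (MEF) and 8.11 (ESC), and the 40 pairs from different stages 3.96 to 31.5. DAY3 and DAY9 therefore count as 1 sample each in the test used below, and agreement between their libraries is not evidence of replication. Nothing in the labels says that the other pairs came from separate cultures or animals. Fibroblast and pluripotency markers changed between MEF and ESC in the direction of the stage names. Peaks over the gene start in both libraries were present at 7 of 10 fibroblast markers in MEF and 3 in ESC, and at 1 of 10 pluripotency markers in MEF and 9 in ESC. Epithelial markers had such peaks at 0 of 5 genes in MEF and 4 in ESC, trophoblast markers at 1 of 3 in MEF and 3 in ESC, and endoderm markers at 1 of 3 in MEF and 2 in ESC. In a bulk library, fewer cells with an open region and less opening per cell cannot be told apart, and the share of feeder cells in the ESC libraries was not measured.

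A region is called open at a stage when both libraries have a peak in it. By that rule 44 of the 183 regions were open in MEF and also 44 at DAY3, then 54 at DAY6, 72 at DAY9 and 60 in ESC. These are 24.0%, 24.0%, 29.5%, 39.3% and 32.8% of them, against 22.1%, 16.9%, 21.7%, 30.8% and 28.2% of all regions. Regions in the window of any protein-coding gene are the closer comparison, and 24.3%, 19.6%, 24.5%, 34.3% and 29.6% of these 152144 were open. Against them the share was about equal in MEF and higher here at the other stages, which was not tested. Open in all 10 libraries were 19 regions (10.4%, against 7.35% of all regions and 9.42% of those in protein-coding gene windows). A peak in 1 library only was found in 64 (35.0%, against 37.9% and 35.8%). When each list was shortened to its 45497 highest-scoring peaks, the counts were 32, 44, 38, 48 and 35, so ESC had 16 more open regions than MEF with the full lists and 3 more with equal lists. Without MEF replicate 2, 71 regions counted as open in MEF, and without ESC replicate 2, 95 in ESC.

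**Figure D1:**
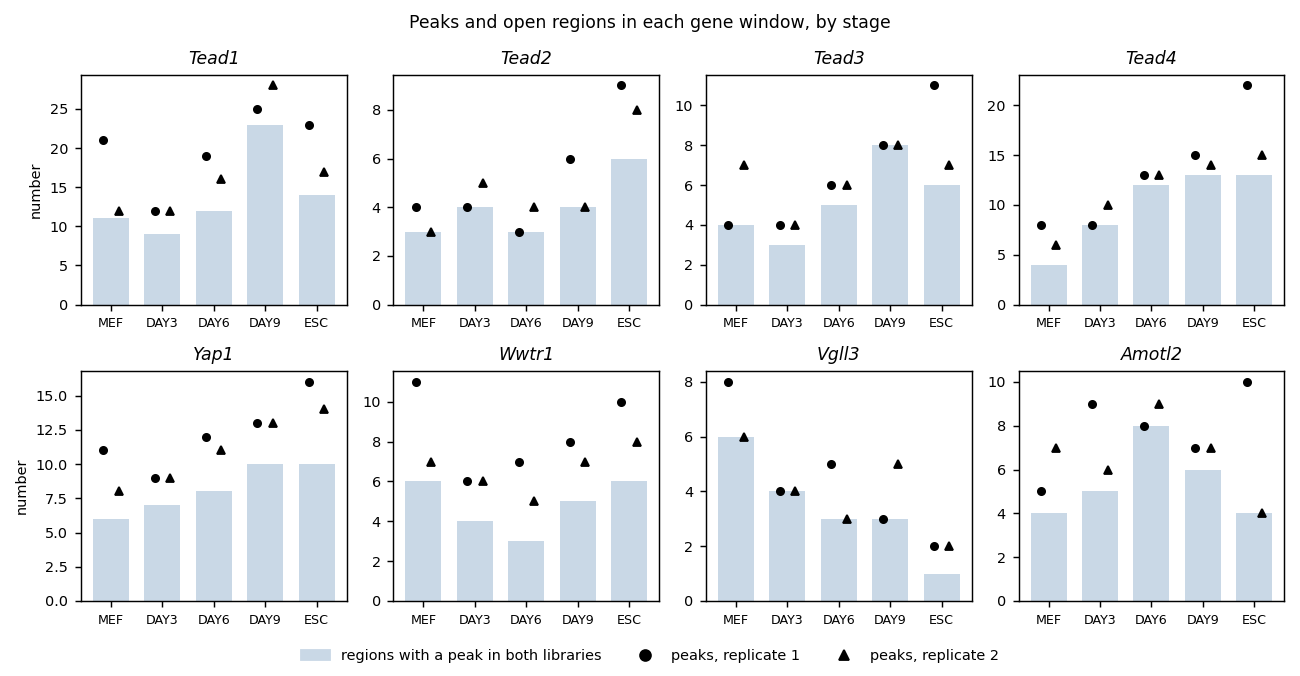
Number of peaks in the window of each gene in replicate 1 (circles) and replicate 2 (triangles), and number of regions with a peak in both libraries (bars), by stage. The Vgll3 bars stand at 6 in MEF and 1 in ESC, and the Tead4 bars at 4 in MEF and 13 in ESC.

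Between MEF and ESC, 16 regions were lost, meaning a peak in both MEF libraries and in neither ESC library, and 29 were gained, the reverse. These were 8.74% and 15.8% of the 183 regions. Over all 208851 regions the same rules called 11.1% lost and 15.9% gained. The gained share was thus at this background and the lost share below it, which was not tested. Over regions in the window of any protein-coding gene they called 10.8% lost and 14.7% gained. Of the regions open in MEF, 36.4% were lost (50.5% of all MEF-open regions and 44.4% of those in protein-coding gene windows). Of those open in ESC, 48.3% were gained (56.6% and 49.7%), close to the share in protein-coding gene windows. With 2 libraries against 2 a two-sided exact permutation test cannot give a p below 2 of 6 arrangements, so these calls carry no p-value. Taking MEF replicate 1 alone for MEF gave 32 lost and 30 gained regions, and taking ESC replicate 1 alone for ESC gave 18 lost and 58 gained, so that the excess of gains over losses depended on the libraries used. Shares over all regions are not given for these settings, so whether the lost share stays below the background there is not known. No lost or gained region lay over the start of any of the 8 genes. Inside the gene lay 11 of the 16 lost and 20 of the 29 gained regions. In the ranking of their own lists, the lost regions had a median percentile of 45.4 in MEF (53.3 for all lost regions) and the gained regions 60.9 in ESC (54.3 for all gained regions).

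With the full lists the losses came early. All 16 lost regions were without a peak in both DAY3 libraries, against 79.4% of all lost regions and 77.5% of those in protein-coding gene windows. Of the 16, 15 were without a peak in any DAY3, DAY6 or DAY9 library, against 74.7% and 72.3%. The exception, behind the 3′ end of Yap1, had a peak in DAY9 replicate 1. DAY3 has the shortest lists. With lists of equal length, 9 of 13 lost regions had no DAY3 peak, and the share over all lost regions is not given for such lists. Without MEF replicate 2, 30 of 32 lost regions had none. The gains were spread over time: 6 of the 29 were first open at DAY3, 7 more at DAY6, 5 at DAY9 and the other 11 in ESC. These are 20.7%, 24.1%, 17.2% and 37.9% of the gained regions, against 8.69%, 14.7%, 15.7% and 60.9% of all gained regions. For gained regions in protein-coding gene windows the shares were 9.73%, 15.5%, 17.7% and 57.0%. In the Tead and Yap windows, fewer of the gains than in either comparison were thus first seen in ESC, which was not tested. A further 13 regions were open at a DAY stage and had no peak in any MEF or ESC library (7.1%, against 9.61%).

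Stage by stage, DAY3 against MEF had 15 gained and 19 lost regions (8.20% and 10.4%, against 5.43% and 10.4% of all regions). DAY6 against DAY3 had 13 gained and 1 lost (backgrounds of 5.29% and 1.5%), and DAY9 against DAY6 had 7 gained and 1 lost (5.39% and 0.956%). ESC against DAY9 had 10 gained and 13 lost (9.1% and 9.24%). Losses in the windows fell mostly at the first and last steps, as they did over all regions. Neighbouring steps share a stage and are not independent.

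**Figure D2:**
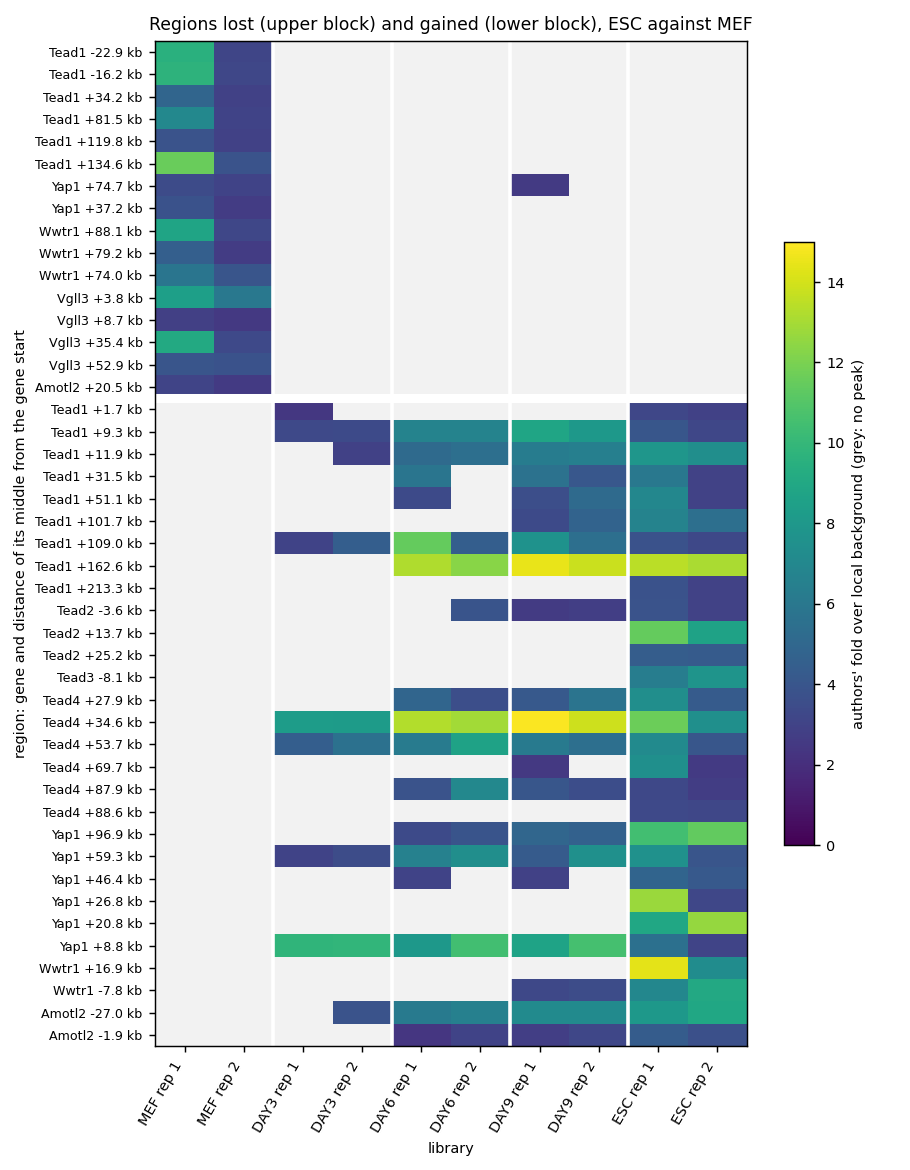
Authors' fold over local background (colour, linear scale from 0 to 15; grey, no peak) in each library for the 16 lost (upper block) and 29 gained (lower block) regions, labelled by gene and by distance of the region's middle from the gene start in kb (for Tead1 and Tead4 from the lower-coordinate gene end). The lost block is filled in the MEF columns and holds 1 further peak, at DAY9, whereas the gained block fills from DAY3 on.

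Tead1 (chr7:112679356-112906784) had the most regions of the 8 genes and the most changes, 6 lost and 9 gained. Among 21063 protein-coding genes with a peak in their window, 3.14% had as many lost and 1.41% as many gained regions. Its window of 287 kb is also the longest of the 8, and such shares of genes do not take window length into account for any gene. Without MEF replicate 2 it had 11 lost and 9 gained regions, and without ESC replicate 2 it had 14 gained. The numbers of peaks in the window were 21 and 12 in MEF, 12 and 12 at DAY3, 19 and 16 at DAY6, 25 and 28 at DAY9 and 23 and 17 in ESC (replicate 1, replicate 2). DAY9 was above all other libraries and DAY3 at the bottom together with MEF replicate 2. With lists of equal length DAY9, at 16 and 18, was still above all others, but DAY3, at 12 and 12, was not below MEF, at 12 and 9, or ESC, at 12 and 8.

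The lost Tead1 region with the highest rank in the MEF lists (mean percentile of the authors' score within the 2 lists), chr7:112813739-112814248 inside the gene, had folds of 11.6 and 3.86 in MEF and no peak in the other 8 libraries. Fold here is the authors' ratio of the summit pileup to the local background. A pair of lost regions lay outside the gene, at chr7:112656064-112656796 with MEF folds of 9.51 and 3.11, and at chr7:112662339-112664036 with 9.68 and 3.22. In all 6 lost regions, replicate 1 of MEF, the shallower library, had the higher fold. This is not particular to Tead1, since the median fold of the whole list was 5.26 in MEF replicate 1 and 3.62 in MEF replicate 2. The highest-ranked gained region, chr7:112841459-112842396, also inside the gene, had no peak in MEF or DAY3, folds of 13.2 and 12.3 at DAY6, 14.5 and 13.8 at DAY9, and 13.5 and 13.1 in ESC. It was thus present from DAY6 on, with folds between 12.3 and 14.5 in all 6 libraries. Whether a region lies in an exon or an intron was not assessed, since exon positions were not used here.

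Some gained Tead1 regions were strongest before ESC. At chr7:112688311-112689063 the folds were 3.30 and 3.37 at DAY3, 6.71 and 6.73 at DAY6, 8.84 and 7.97 at DAY9, and 4.01 and 3.18 in ESC. At chr7:112787895-112788796 they were 3.01 and 4.47 at DAY3, 11.5 and 4.51 at DAY6, 7.62 and 5.49 at DAY9, and 3.79 and 3.25 in ESC. In both places every DAY6 and DAY9 library was above both ESC libraries. A region counted neither as lost nor as gained, chr7:112719994-112721183, was strongest in MEF: folds were 12.6 and 7.88 in MEF, 3.49 and 3.51 at DAY3, 3.88 and 6.01 at DAY6, 4.68 and 4.02 at DAY9, and 3.57 in ESC replicate 1, with no peak in ESC replicate 2. Both MEF libraries were above all others there.

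Tead4 (chr6:128227143-128300813), the Tead gene of the trophectoderm, had 6 gained and 0 lost regions. Of 21063 genes, 4.79% had at least 6 gained, and 177 genes (0.84%) had at least 6 gained together with 0 lost. These cut-offs are the counts of Tead4 itself, so the shares are not a test. Peaks in its window numbered 8 and 6 in MEF, 8 and 10 at DAY3, 13 and 13 at DAY6, 15 and 14 at DAY9 and 22 and 15 in ESC. Every library from DAY6 on was above every MEF and DAY3 library. With lists of equal length the numbers were 5 and 5 in MEF, 8 and 10 at DAY3, 10 and 9 at DAY6, 12 and 8 at DAY9 and 12 and 9 in ESC, so that MEF stayed lowest but DAY3 overlapped the later stages.

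The strongest gained Tead4 region, chr6:128261263-128262139 inside the gene, had no peak in MEF, folds of 8.30 and 8.21 at DAY3, 13.3 and 12.9 at DAY6, 14.9 and 13.8 at DAY9, and 11.7 and 7.47 in ESC. It opened by DAY3 and its folds were highest at DAY9. A neighbour at chr6:128280417-128281285 was likewise present from DAY3, with folds of 4.46 and 5.59 there and 7.20 and 4.01 in ESC. Of the other 4 gained regions, chr6:128254450-128255693 and chr6:128314783-128315222 were open from DAY6, and chr6:128296342-128297268 and chr6:128315421-128316046 in ESC only, the former with 1 further peak at DAY9. The number of gained Tead4 regions was 2 with lists of equal length and 13 without ESC replicate 2. Without MEF replicate 1 it had 2 lost regions. The regions at chr6:128314783-128315222 and chr6:128315421-128316046 lay 14.0 and 14.6 kb above the gene record in coordinate, and Tulp3 also reaches into the window.

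Tead2 (chr7:45215792-45233468, plus strand) had 3 gained and 0 lost regions. Its strongest gain, chr7:45228990-45230009 inside the gene, had folds of 11.4 and 8.63 in ESC and no peak in the other 8 libraries. The other gains lay over gene ends of neighbours, chr7:45211659-45212639 over an end of Dkkl1 and chr7:45240644-45241355 over an end of Slc6a16. Kash5 and Cd37 also reach into this window, so its regions cannot be assigned to Tead2 alone. Peaks numbered 4 and 3 in MEF, 4 and 5 at DAY3, 3 and 4 at DAY6, 6 and 4 at DAY9 and 9 and 8 in ESC. Both ESC libraries were above the other 8. Without MEF replicate 2 there was 1 lost region. With lists of equal length the Tead2 peaks numbered 3 and 2 in MEF and 4 and 3 in ESC.

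Tead3 (chr17:28331671-28350805, minus strand) had the fewest calls, with 1 gained region and 0 lost, although leaving out ESC replicate 2 gave 6 gained and leaving out MEF replicate 1 gave 2 lost. The gain, chr17:28358553-28359215, lay 7.75 kb upstream, with folds of 6.33 and 7.74 in ESC and no peak elsewhere. Its start region also covers an end of Tulp1, and Fance and Rpl10a lie in the window with regions open in all 10 libraries over an end of each. A region inside the gene, chr17:28340593-28341596, was highest at DAY9: folds were 6.77 and 3.87 in MEF, 3.62 in DAY3 replicate 2 alone, 6.51 and 8.06 at DAY6, 9.85 and 9.74 at DAY9, and 3.79 and 3.10 in ESC. The DAY9 libraries were above all others. Peaks in the window ran from 4 to 11, with MEF (4 and 7) and ESC (11 and 7) touching.

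Yap1 (chr9:7931999-8004638, minus strand) had 6 gained and 2 lost regions. As many gained regions were found at 4.79% of genes and as many lost at 26.4%. Peaks numbered 11 and 8 in MEF, 9 and 9 at DAY3, 12 and 11 at DAY6, 13 and 13 at DAY9 and 16 and 14 in ESC. ESC was above all other libraries, and MEF overlapped DAY3 and touched DAY6. With lists of equal length the order was another, with 4 and 6 in MEF, 9 and 9 at DAY3, 9 and 7 at DAY6, 9 and 8 at DAY9 and 10 and 8 in ESC, where MEF was below all and ESC overlapped the DAY stages.

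The gained regions of Yap1 differed in their course. The region 8.78 kb behind the start, chr9:7995252-7996469, had folds of 9.79 and 9.90 at DAY3, 7.99 and 10.4 at DAY6, 8.71 and 10.6 at DAY9, and 5.56 and 3.06 in ESC, so that all 6 DAY libraries were above both ESC libraries. The region with the highest rank in the ESC lists, chr9:7907395-7908145, 23.9 kb downstream of the gene, had folds of 3.37 and 3.91 at DAY6, 4.97 and 4.66 at DAY9, and 10.4 and 11.4 in ESC, higher at each later stage. A pair inside the gene had peaks in the ESC libraries alone: chr9:7983580-7984094 with folds of 8.93 and 12.6, and chr9:7977507-7978085 with 12.7 and 3.22. Another was open in ESC only but had single peaks before: chr9:7957943-7958462 had folds of 3.04 in DAY6 replicate 1, 2.89 in DAY9 replicate 1, and 4.84 and 4.19 in ESC. The last, chr9:7944920-7945693, had folds of 3.01 and 3.51 at DAY3, 6.6 and 7.40 at DAY6, 4.32 and 7.52 at DAY9, and 7.58 and 3.93 in ESC, with no order between the later stages.

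The lost Yap1 regions were weak. The higher-ranked one, chr9:7929645-7930264, had folds of 3.40 and 3.00 in MEF and 2.57 in DAY9 replicate 1, and the other, chr9:7967110-7967781, had 3.75 and 2.68 in MEF. The first lost its call with lists of equal length, with the top 50% of each list, and when a peak had to cover 50% of the region. With equal lists Yap1 had 0 lost and 3 gained regions, without MEF replicate 2 it had 5 lost, and without ESC replicate 2 it had 10 gained. Cfap300 also reaches into the window.

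Wwtr1 (chr3:57455644-57575910, minus strand), the other coactivator gene, had 3 lost and 2 gained regions, at numbers reached by 13.9% and 41.0% of genes. All 3 lost regions lay inside the gene within 74.0 to 88.1 kb behind the start. The highest-ranked, chr3:57501544-57502233, had folds of 5.81 and 3.97 in MEF, chr3:57496440-57497007 had 4.53 and 2.68, and chr3:57487338-57488282 had 8.73 and 3.22. None of the 3 had a peak in the other 8 libraries. The stronger gain, chr3:57558679-57559273, 16.9 kb behind the start, had folds of 14.4 and 7.28 in ESC and no peak before. The second gain, chr3:57583493-57583990, 7.58 kb upstream, had folds of 3.24 and 3.46 at DAY9 and 6.91 and 9.03 in ESC. By these calls, on 3 lost and 2 gained regions, the Wwtr1 gains lay near or before the start and the losses deep in the gene. Peaks numbered 11 and 7 in MEF, 6 and 6 at DAY3, 7 and 5 at DAY6, 8 and 7 at DAY9 and 10 and 8 in ESC, with MEF and ESC overlapping. Without MEF replicate 2 there were 7 lost regions, and without ESC replicate 2 there were 5 gained. The added losses included 1 at 25.3 kb behind the start, and the added gains 1 at 85.8 kb. The separate places of Wwtr1 losses and gains thus depended on the libraries used.

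Vgll3 (chr16:65815189-65866368, plus strand) was the only gene of the 8 with losses and no gain, 4 lost and 0 gained. Of all 21063 genes, 7.76% had at least 4 lost regions and 248 (1.18%) had at least 4 lost with 0 gained. These cut-offs are the counts of Vgll3 itself, so the shares are not a test. Peaks numbered 8 and 6 in MEF, 4 and 4 at DAY3, 5 and 3 at DAY6, 3 and 5 at DAY9 and 2 and 2 in ESC. MEF was above every other library and ESC below every other library. With equal lists the MEF and ESC numbers were 6 and 5 against 1 and 1, in the same order, although the ESC lists are the longest of the study. The Vgll3 losses were 2 with the top 50% of each list and 6 without MEF replicate 2, and without ESC replicate 2 there was 1 gained region.

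The highest-ranked lost Vgll3 region, chr16:65818725-65819331, 3.84 kb behind the start, had folds of 8.44 and 6.03 in MEF. The region chr16:65850026-65851210, also inside the gene, had 9.13 and 3.33. The last 2 lost regions were weaker, chr16:65867746-65868476 with 3.98 and 3.75 and chr16:65823724-65824150 with 2.84 and 2.49. None of the 4 had a peak in a DAY or ESC library. A region 2.43 kb behind the gene, chr16:65868799-65869633, followed another course: folds were 4.91 and 4.18 in MEF, 8.39 and 8.71 at DAY3, 11.2 and 12.2 at DAY6, 8.72 and 11.6 at DAY9, and 3.25 in ESC replicate 2 alone. All 6 DAY libraries were above both MEF libraries there.

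Amotl2 (chr9:102717091-102733418, plus strand) had 2 gained regions and 1 lost. The stronger gain, chr9:102689362-102690910, lay 26.2 kb upstream, with folds of 3.83 in DAY3 replicate 2, 6.21 and 6.55 at DAY6, 7.18 and 7.20 at DAY9, and 8.0 and 8.96 in ESC. From DAY6 on, both libraries of each stage were above those of the stage before. The second gain, chr9:102714981-102715472, 1.62 kb upstream, had folds of 2.35 and 3.00 at DAY6, 2.80 and 3.21 at DAY9 and 4.38 and 3.66 in ESC. The lost region, chr9:102737380-102737730, was weak, with folds of 3.06 and 2.54 in MEF, and lost its call with equal lists and with the top 50% of each list. Amotl2 had 3 lost regions without MEF replicate 1, 2 without MEF replicate 2 or ESC replicate 1, and 5 gained without ESC replicate 2. Peaks in the window ran from 4 to 10, and the highest and the lowest number were both in ESC libraries.

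**Figure D3:**
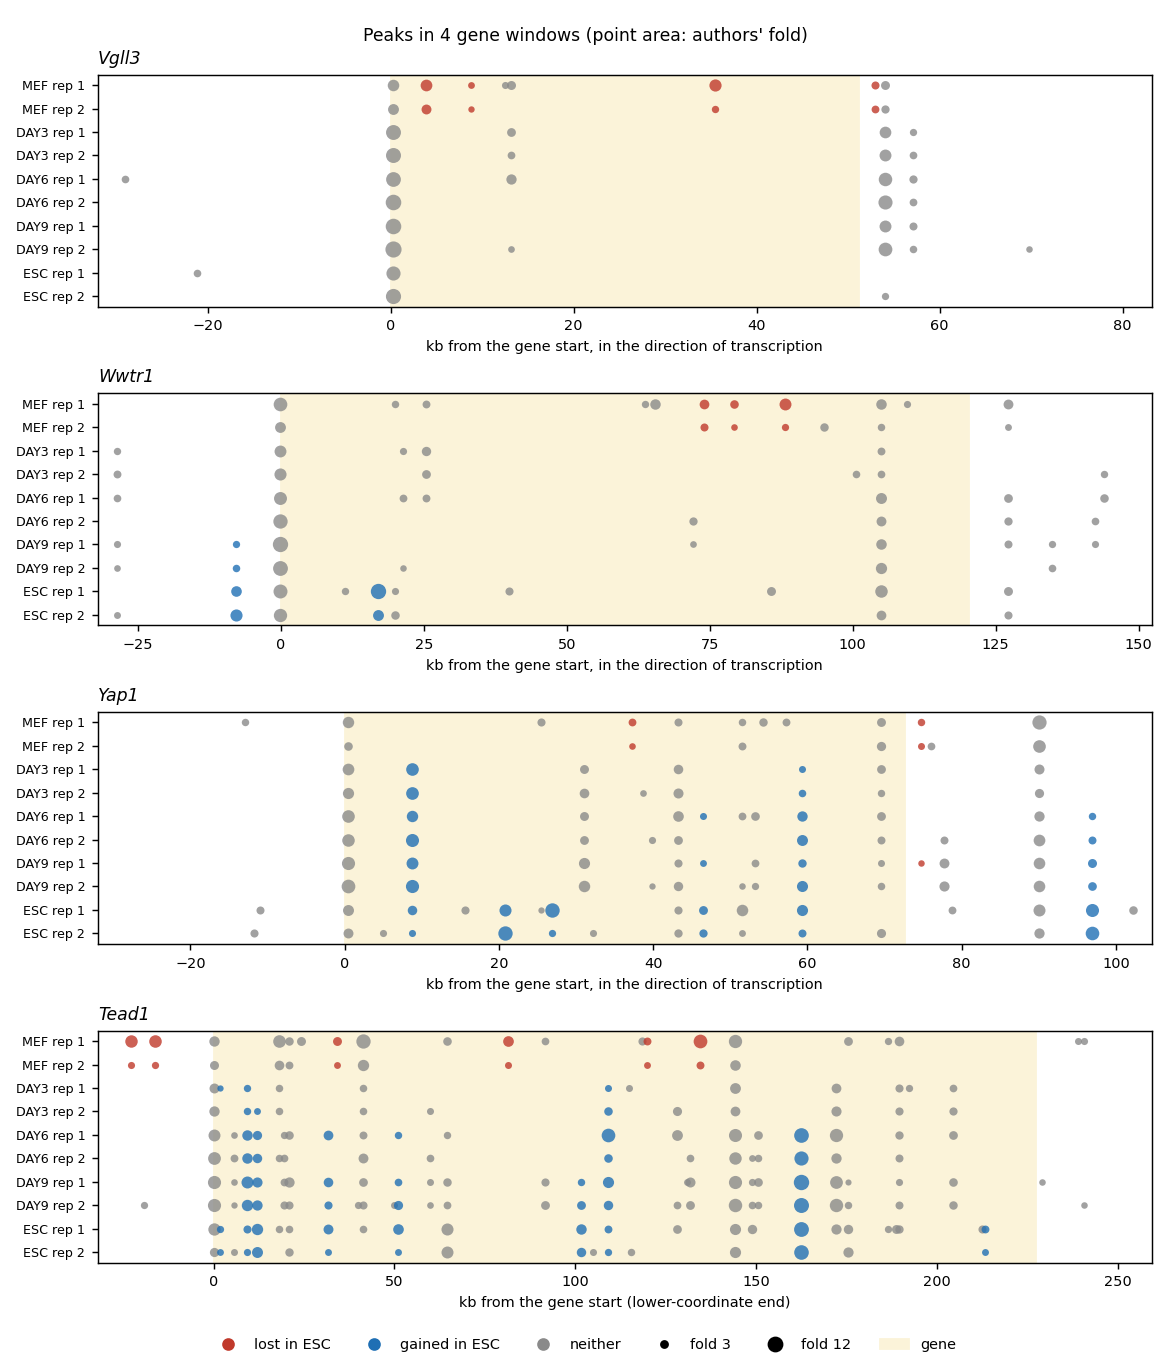
Peaks of each library along the windows of Vgll3, Wwtr1, Yap1 and Tead1, by distance from the gene start in kb (point area, authors' fold; red, region lost in ESC; blue, region gained; grey, neither; shaded, gene). The Wwtr1 losses lie between 74.0 and 88.1 kb behind the start and its gains at −7.83 and 16.9 kb, and the Vgll3 window keeps 1 region open in both ESC libraries, at the start.

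An exact permutation test asked, over all genes, whether the number of peaks in a window differed between stages (share of the sum of squares between stages, 8 samples, 420 arrangements, smallest p 0.00238). With Benjamini-Hochberg adjustment over 21063 genes, 0 (0.0%) passed 0.05, and 3031 (14.4%) had an unadjusted p of at most 0.05. None of the 8 genes was among the latter. Tead2 had the lowest p, 0.0667 (exact permutation test, adjusted p = 0.359), followed by Tead4 (adjusted p = 0.374), Vgll3 (0.380) and Yap1 (0.389). Tead1 (0.610), Tead3 (0.633), Wwtr1 (0.70) and Amotl2 (0.967) followed. The smallest adjusted p over all genes was 0.290, so this design called no gene, and the orders of libraries given above stand as descriptions.

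All 8 genes kept a peak over the gene start in all 10 libraries. For Tead1 and Tead4, whose strand was not given in the tables used, the region over 1 gene end was taken. To compare strength across libraries of different depth, each fold was divided by the library's median fold over the 15359 regions with a peak in every library, a scale chosen after the values were seen. At the Vgll3 start this relative fold was 0.864 and 1.27 in MEF, 1.95 and 1.95 at DAY3, 1.41 and 1.54 at DAY6, 1.45 and 1.57 at DAY9, and 1.31 and 1.83 in ESC. Every library after MEF was above both MEF libraries, and the mean in ESC was 1.48 times that in MEF, a ratio reached by 9.4% of all 15359 regions. It was the highest ratio of the 8 starts, so this share is not a test. The Vgll3 start thus had a higher relative fold in every library after MEF, and in each of them its window held fewer peaks than in MEF. Among the later libraries no such inverse order was seen. DAY3, with 4 and 4 peaks, had the highest relative folds, and ESC replicate 1, with 2 peaks, the lowest.

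At the Amotl2 start the relative fold was 0.912 and 0.948 in MEF, 1.19 and 0.890 at DAY3, 0.731 and 0.652 at DAY6, 0.676 and 0.675 at DAY9 and 0.775 and 0.570 in ESC. Its ratio of 0.723 was the lowest of the gene starts. A ratio as low was found at 13.1% of regions, a share that is not a test. From DAY6 on, all libraries were below those of MEF and DAY3. At the Wwtr1 start it was 1.21 and 1.26 in MEF and 1.28 and 1.41 in ESC, a ratio of 1.09. The Yap1 start had 0.848 and 0.792 in MEF, 1.2 and 1.09 at DAY3, 1.03 and 0.996 at DAY6, 1.04 and 1.13 at DAY9, and 0.789 and 0.789 in ESC, with all 6 DAY libraries above all MEF and ESC libraries. The Tead1, Tead3 and Tead4 starts overlapped between MEF and ESC, and the Tead2 start was lower in ESC, with a ratio of 0.794.

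**Figure D4:**
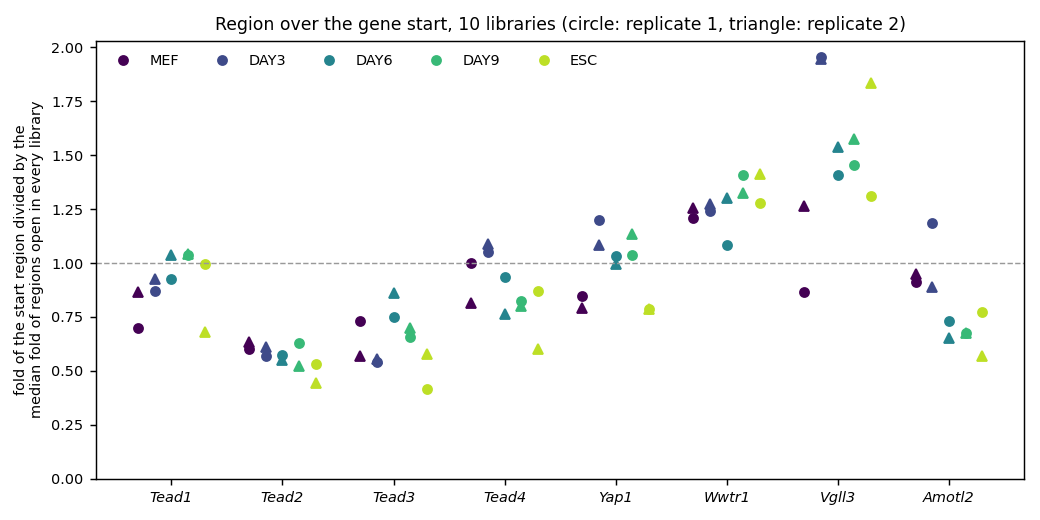
Relative fold of the region over each gene start in the 10 libraries (circle, replicate 1; triangle, replicate 2; colour, stage). The dashed line at 1 is the median of the regions open in every library, and the MEF points of Vgll3 lie below all its later points.

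Of all 19 regions open in every library, the relative fold of both ESC libraries was above both MEF libraries in 4 and below both in 8, and it overlapped in 7. Over all 15359 such regions, 23.6% were above and 26.0% below. The median ratio of ESC to MEF was 0.870 here and 0.974 over all. The lowest ratio, 0.589, was at chr9:7913779-7915540, 16.5 kb downstream of Yap1, where the relative fold was 1.32 and 1.71 in MEF and lay between 0.684 and 0.943 in all later libraries. Of all 15359 regions, 4.53% had a ratio as low. The region was named for being the lowest of the 19, so this share is not a test. Above MEF besides the Vgll3 and Wwtr1 starts were chr9:102725824-102726786 inside Amotl2, with a ratio of 1.40, and chr3:57470201-57471660 inside Wwtr1, with 1.35. The region chr6:128200060-128201484, 25.7 kb from Tead4, had the highest mean relative folds of the 19 in MEF (1.97) and in ESC (1.71), with 1.45 to 2.1 over all libraries.

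The windows of 14 other Hippo pathway genes held 275 regions, 37 lost and 35 gained (13.5% and 12.7%, against 11.1% and 15.9% of all regions). In protein-coding gene windows the shares were 10.8% and 14.7%. Of these genes 9 had a lost and 11 a gained region, while over all genes 51.7% had a lost and 69.2% a gained one. The losses were led by Vgll4, a Tead cofactor that represses, with 10 lost and 1 gained, Amotl1, a paralog of Amotl2, with 7 and 4, and Wwc1 (Kibra), an upstream activator of the kinases, with 5 and 8. The gains were led by Wwc1, by Stk3 (Mst2), a core kinase, with 4 lost and 7 gained, and, at 4 gained each, by Nf2, Lats2 and Amotl1. Vgll1 had no region in its window.

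Among 20 genes known as Yap and Tead targets, 19 had a lost and 16 a gained region, with 87 lost and 59 gained of 536 regions (16.2% and 11.0%, against 11.1% and 15.9% of all regions). Regions in protein-coding gene windows were 10.8% lost and 14.7% gained. More lost than gained regions were found at 14 of the 20 and fewer at 3, whereas of all genes 24.7% had more lost and 47.6% more gained. The 8 Tead and Yap genes themselves had more lost at 2 and more gained at 6. The median of lost minus gained per gene was −2 for these 8, 1 for the targets, 0 for the other Hippo genes and 0 over all genes. Rbms3, which has by far the longest window, led the targets both ways with 16 lost and 12 gained. Crim1 had 9 lost and 4 gained, Ptpn14, which binds Yap1, 9 and 7, and Asap1 and Dock5 8 and 7 each. Of the standard reporters of Yap activity, named here after their values were seen, Ankrd1 had 3 lost and 0 gained, Ccn1 (Cyr61) 1 and 2, and Ccn2 (Ctgf) 2 and 3. The lists were not compared by a test, and fibroblast markers, which had 28 lost and 11 gained of 103 regions (27.2% and 10.7%), moved in the direction of the targets. Their part in the target counts was not tested.

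**Figure D5:**
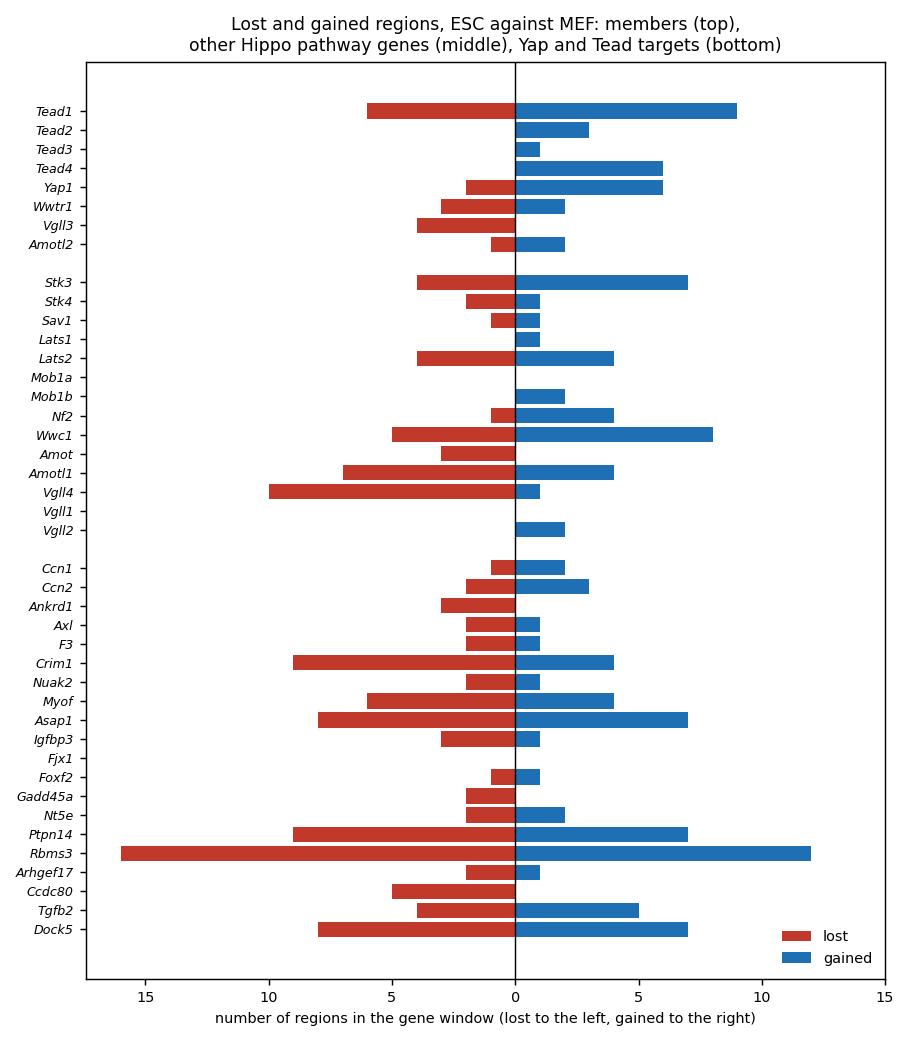
Number of regions lost (red, to the left) and gained (blue, to the right) between MEF and ESC in the window of each of the 8 genes (top), of 14 other Hippo pathway genes (middle) and of 20 Yap and Tead targets (bottom). Bars to the left are longer than those to the right at 14 of the 20 targets and at 2 of the 8 genes, Wwtr1 and Vgll3.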

How the data were processed

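The authors deposited 1 peak list per library. Per the submitters' processing notes, which name tools without roles, these included Bowtie2 2.3.2, MACS2 2.1.1 and deepTools 2.3.6 with build mm10. Filters and the handling of duplicates and of the transposase offset are not given in the sources used here. In the authors' lists the score equals the deposited −log10 p-value multiplied by 10, without decimals, no deposited −log10 p-value is under 5, and the fold is a linear ratio of summit to local background. Scores ranked peaks within a list. Depth came from pileups recovered from fold and p-value.

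Lists were merged into regions, and a region counts for a library whose peaks overlap it by 1 bp or more. Gene positions are from RefSeq (GRCm38.p6). Analysis used Python 3.11.15, pandas 2.3.3 and scipy 1.17.1, and the permutation test was tested on simulated data. The genes and lists were chosen with earlier results of these data known. Named regions are, per gene, the start region and the lost and gained regions of highest mean percentile of score; in other lists, up to 3 genes each way. Further regions were chosen after their values were seen. Alternatives were shorter lists, other overlaps, windows and stage rules, and each library left out.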

Additional observations from a re-analysis of the deposited data

How the results depend on the processing

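With lists of equal length the regions open in ESC numbered 35, the gained regions 17 and the lost regions without a DAY3 peak 9. With the top 50% of each list, 24, 26, 30, 39 and 35 regions were open from MEF to ESC, 9 were lost, 7 of them without a DAY3 peak, and 19 were gained. Windows of 50 kb gave 28 lost regions, 25 without a DAY3 peak. When a peak in 1 library of a stage was enough, 80 regions were open in MEF, 82 at DAY6 and 108 in ESC, 40 were lost, 38 of them without a DAY3 peak, and 68 were gained. Leaving out each library gave 44 to 71 regions open in MEF, 60 to 95 in ESC, 16 to 32 lost, 29 to 58 gained and 16 to 30 lost without a DAY3 peak. The highest counts came without MEF replicate 2 (71, 32 and 30) and without ESC replicate 2 (95 and 58). Gained outnumbered lost regions in each setting run except without MEF replicate 2 (32 lost, 30 gained). Vgll3 had 2 to 6 lost and 0 to 1 gained regions over the settings run, whereas Tead1 had as many lost as gained with equal lists (6 each), and more lost with 50% cover (8 and 7) and without MEF replicate 2 (11 and 9). The test of peak number called 0 genes in all 16 alternatives, with 1396 to 6832 at an unadjusted p of at most 0.05. The 6832 came from counting all 10 libraries separately, which treats the DAY3 and DAY9 pairs as replicates. There and in some other alternatives, some of the 8 genes, such as Tead4, had an unadjusted p of at most 0.05, but none passed after adjustment. Replicate numbers did not pair the libraries (correlations of −0.055 to 0.032 over 10 pairs of stages), and the replicate block called 0 genes after adjustment and 4337 before. Depth is known only as background pileup, and its effect on weak regions was not tested. A missing peak is not a closed region.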

Other observations

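Regions with peaks in the DAY libraries alone, and none in MEF or ESC, included the following, chosen after their values were seen. At Yap1, chr9:7972894-7974232 inside the gene had folds of 4.92 and 5.71 at DAY3, 4.91 and 4.81 at DAY6, and 7.63 and 8.09 at DAY9. At Vgll3, chr16:65871911-65872632, 5.54 kb behind the gene, had folds of 3.25 and 3.63 at DAY3, 4.17 and 3.69 at DAY6, and 3.96 and 3.47 at DAY9. Both regions were thus present in all 6 DAY libraries, whether sorted or not.

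At Amotl2, chr9:102746346-102747065, 12.9 kb behind the gene, was strongest earlier, with folds of 6.03 and 5.90 at DAY3, 5.61 and 7.82 at DAY6, and 2.99 in DAY9 replicate 2 alone. A pair of others had peaks in 5 DAY libraries, chr7:112883196-112884396 inside Tead1 with folds of 3.65 to 4.72 and chr6:128312377-128312961 near Tead4 with folds of 3.11 to 4.63. Also at Tead1, chr7:112851002-112851879 inside the gene had folds of 5.85 and 6.29 at DAY3, 10.8 and 6.51 at DAY6, 10.0 and 11.0 at DAY9, and 6.42 in ESC replicate 1, with no peak in MEF or ESC replicate 2. It is counted neither as gained nor as limited to the DAY stages.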
